A study of Homo sapiens with 16 samples.

Results

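Expression of 58 genes that drive and carry out mitosis was examined in LNCaP cells treated with siRNA against SLIRP. The genes were chosen by name, as members of the cyclin B-CDK1, spindle, condensin and cytokinesis machinery and not by a rule on measured values, although earlier results of these data were known when they were chosen. Of the 20531 entries of the deposited count table, 58 matched the 58 names. LNCaP is a line of human prostate cancer cells that respond to androgen, and SLIRP is a small RNA-binding protein that binds the noncoding coactivator RNA SRA. RNA sequencing libraries came from 4 groups of 4 replicates. NS-Veh cells received a nonsense control siRNA (NS) and vehicle, NS-1nM DHT cells the same siRNA and 1 nM dihydrotestosterone (DHT, a natural androgen), while a pool of siRNAs against SLIRP was given with vehicle (SLIRP-Veh) or with 1 nM DHT (SLIRP-1nM DHT). All groups share 1 cell line, transient transfection and serum-free medium during the hormone treatment. The study's methods state that the replicates came from more than 1 experiment, without saying which replicate number belongs to which, so p-values measure the spread between these libraries.

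Entry into mitosis is driven by CDK1 bound to cyclin B, which is held inactive by inhibitory phosphorylation until CDC25 phosphatases remove it. The transcription factors FOXM1 and MYBL2 (B-MYB) switch on many late cell cycle genes before mitosis, Aurora and Polo-like kinases and kinesin motors build the spindle, condensin and topoisomerase II compact the chromosomes, and the ubiquitin ligase APC/C with CDC20 triggers their separation. Anillin, PRC1, centralspindlin and CEP55 then organise cytokinesis. Transcripts of many, but not all, of these genes are scarce in resting cells and peak in G2 and mitosis. In bulk RNA, a larger share of cells in the phases where a gene is expressed and more RNA per such cell cannot be told apart.

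Library totals lay between 436353 and 1689708 counts, and the mean count of a member over the 16 libraries ranged from 9.75 to 280.25 with a median of 43.25. Of 928 member values, 101 were under 10 counts and 3 were 0. SLIRP, listed under its older symbol C14orf156, lay at 44.3 to 63.6 CPM (counts scaled to a fixed library size with TMM factors) in the NS libraries and at 1.41 to 8.13 CPM in the SLIRP siRNA libraries. Luminal and LNCaP markers were present in every library but several moved with the siRNA. FOLH1 lay at 1642 to 2108 CPM in the NS and 1024 to 1372 CPM in the SLIRP siRNA libraries, and HOXB13 and KRT8 were also lower without overlap, at 301 to 412 against 152 to 269 CPM and 287 to 373 against 213 to 266 CPM. The androgen-induced KLK2 was higher without overlap within each treatment, at 1.33 to 4.02 against 4.57 to 7.89 CPM with vehicle and 24.2 to 36.05 against 43.3 to 67.7 CPM with DHT. The part of these differences in the results for the mitotic genes was not tested. The basal markers KRT5 and TP63 and the leukocyte markers PTPRC and CD3E had 0 counts in all libraries, as did the fibroblast gene DCN, while KRT14, COL1A2, LUM and CD14 had at most 2 counts in any library and COL1A1 lay at 5.64 to 21.9 CPM.

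The mitotic genes stood higher in SLIRP siRNA cells as a block. Their summed level was 1228, 1380, 2051 and 2031 CPM in NS-Veh replicates 1 to 4 and 1783, 1895, 2774 and 2864 CPM in NS-1nM DHT. In SLIRP-Veh it was 4972, 4797, 4603 and 4803 CPM, and in SLIRP-1nM DHT 5426, 5535, 5745 and 5524 CPM. Every SLIRP siRNA library lay above every NS library. The group means (± SD, n = 4) were 1672 ± 430, 2329 ± 569, 4794 ± 151 and 5557 ± 135 CPM in the same order of groups, which is 2.87 times higher with SLIRP siRNA than with NS under vehicle and 2.39 times higher under DHT. The sum gives most weight to members with many counts. Of the 58 members, 49 had group means that rose in this order, and in all 58 the SLIRP-Veh mean was above the NS-1nM DHT mean. These orders were not counted over all genes tested, so the counts describe the members only.

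**Figure D1:**
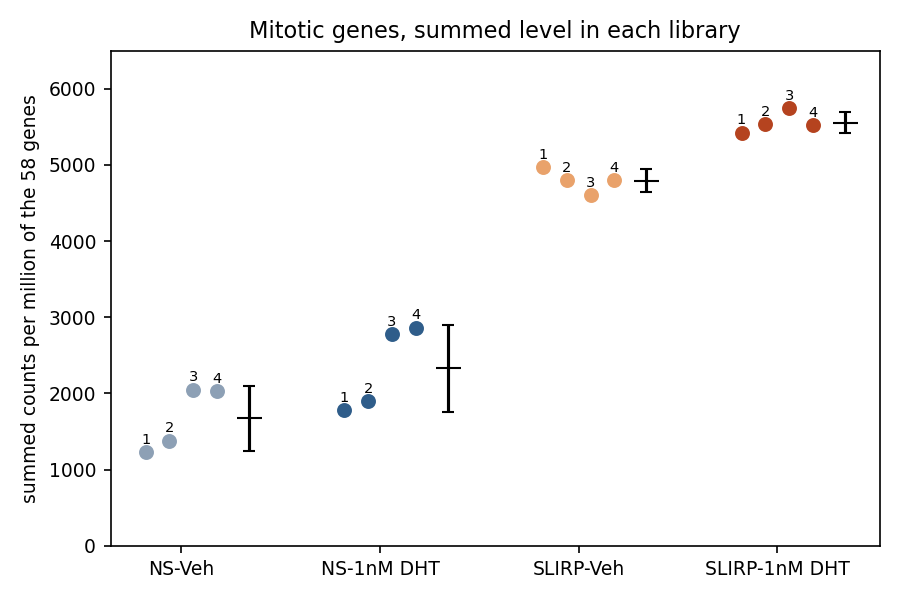
Summed level of the 58 mitotic genes (CPM, vertical axis from 0) in each of the 16 libraries by group (horizontal axis). Points are libraries with their replicate number, and the black marks are group means with SD. The SLIRP siRNA libraries sit between 4603 and 5745 CPM and the NS libraries between 1228 and 2864 CPM, with replicates 1 and 2 of both NS groups below replicates 3 and 4.

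Replicates of the NS groups were not alike for these genes. In NS-Veh, 39 of 58 members had both replicates 3 and 4 above both replicates 1 and 2, which 24.3% of the 10684 genes tested did, and in NS-1nM DHT 46 members did, where 20.5% of genes did. With SLIRP siRNA the counts were 9 members under vehicle, where 18% of genes did, and 16 under DHT, where 20.1% of genes did. Totals were 512925, 436353, 1521674 and 1250287 counts in NS-Veh replicates 1 to 4 and 969196, 1313888, 1157603 and 1371449 counts in NS-1nM DHT, and the part of depth in this split was not tested. Whether these pairs of replicates are separate experiments is not given in the sources used here. The comparison of the siRNAs was therefore also made within each pair. These pairs were chosen after the values were seen, as NS levels were lower in replicates 1 and 2. A larger fold change in that pair follows from the choice and is not a separate result.

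SLIRP siRNA (8 libraries, vehicle and DHT together) was compared with NS siRNA (8 libraries). All 58 members passed the filter on low counts, and all 58 were higher in SLIRP siRNA cells at an FDR of 0.01, where 17.8% of the 10167 genes tested were called higher. None was lower, which 17.4% of genes tested were. Fold changes are given on the log2 scale with the standard error (SE) of the fit, and each adjusted p is the Benjamini-Hochberg value of edgeR's quasi-likelihood test. The median log2 fold change of the members was 1.38, a 2.61-fold difference, against -0.01 for all genes tested, and members ranged from 0.40 (CKAP2) to 2.17 (CEP55). All 8 SLIRP siRNA libraries lay above all 8 NS libraries for 48 members, which 7.95% of the genes tested did. The exceptions were CCNB1, CKS2, AURKA, AURKB, TTK, CDCA8, UBE2C, ESPL1, CKAP2 and ECT2. In the pairs chosen after seeing the data, 55 of 56 members tested were called from replicates 1 and 2, with a median of 1.78. From replicates 3 and 4 alone 57 of 58 were called, with a median of 1.22. The share of all genes called in these fits is not given here.

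**Figure D2:**
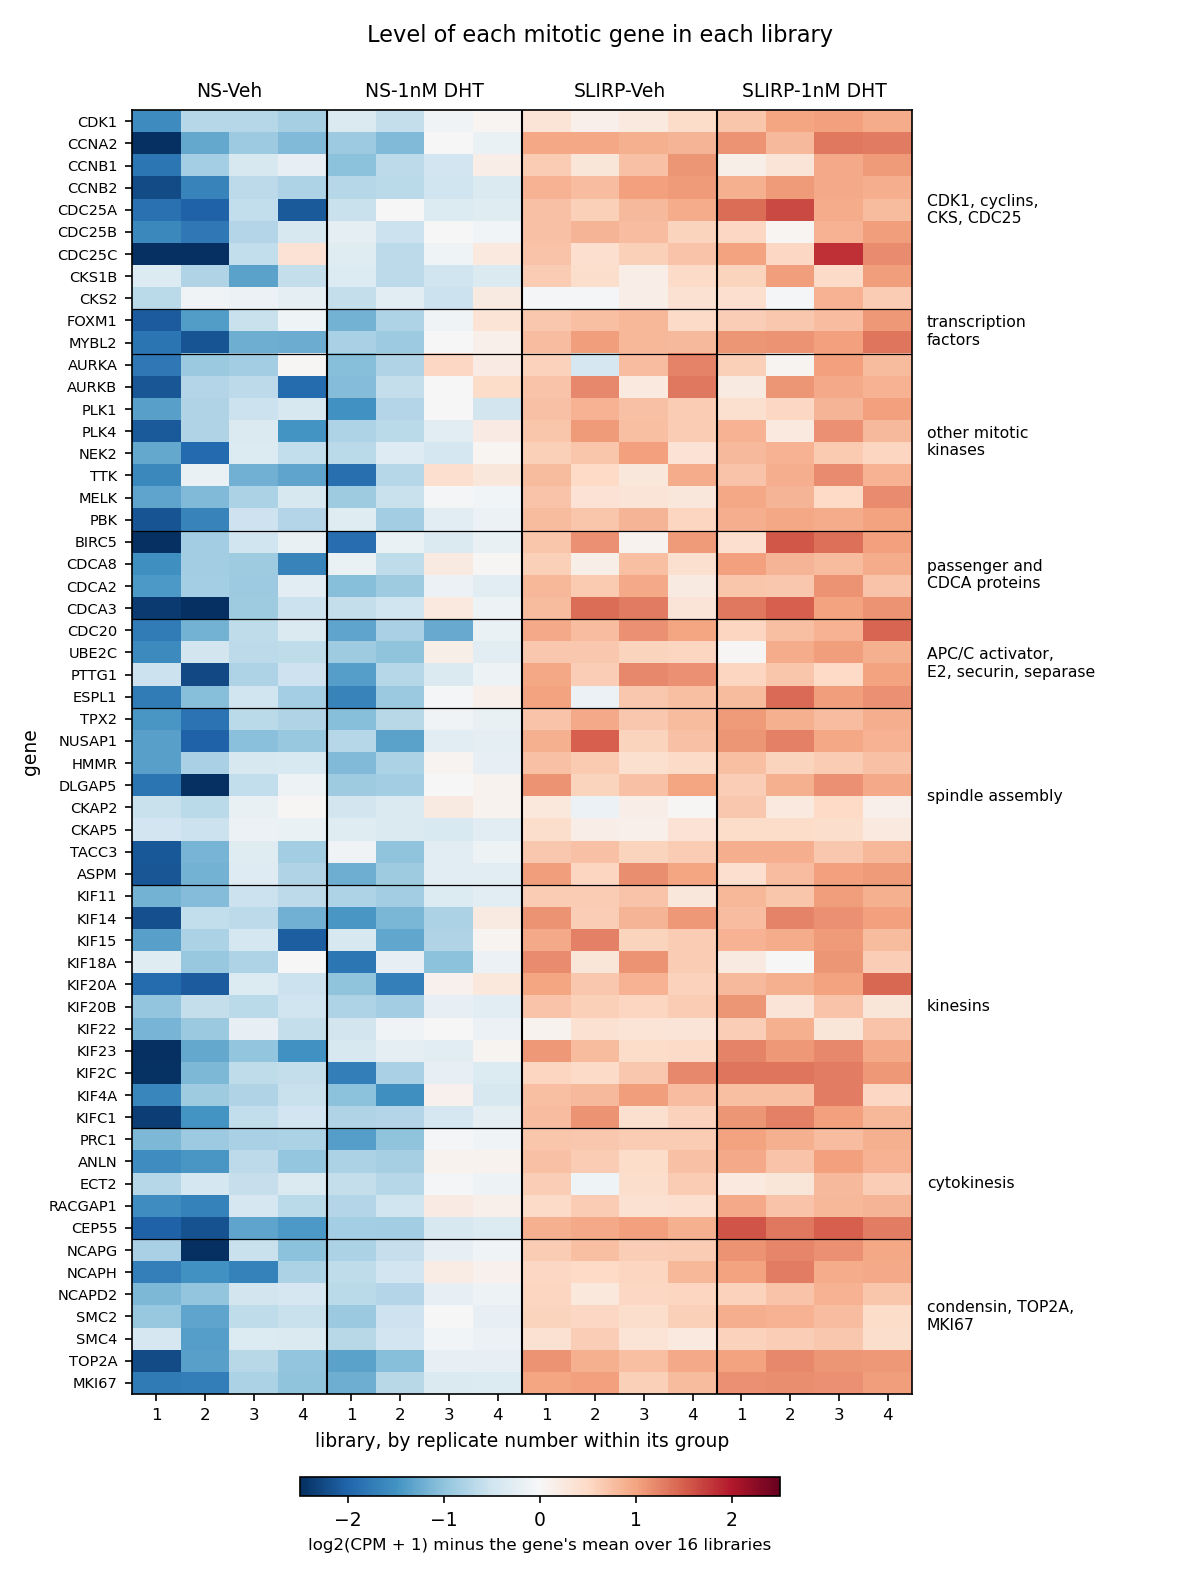
Level of each member (rows, grouped by role) in each library (columns, by group and replicate number), as log2(CPM + 1) minus the gene's mean over the 16 libraries, with blue below and red above that mean. The left 8 columns (NS) are blue and the right 8 (SLIRP siRNA) red for nearly all rows, and CKS2, CKAP2 and CKAP5 are the palest.

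CDK1 and the proteins that activate it rose together, as 9 of 9 members of this group were called, with a median log2 fold change of 1.29. CDK1, the kinase itself (hg19 chr10:62538089-62554610, plus strand), was at 44.7, 82.0, 82.8 and 76.3 CPM in NS-Veh and 106, 89.2, 128 and 141 CPM in NS-1nM DHT. It was at 172, 148, 160 and 186 CPM in SLIRP-Veh and 221, 271, 279 and 259 CPM in SLIRP-1nM DHT. The 4 groups did not overlap and rose in that order, and SLIRP siRNA against NS gave a log2 fold change of 1.12 (SE 0.15, edgeR adjusted p = 2.13e-07). The highest of the group was CCNA2, the cyclin A that acts in S phase and at mitotic entry, at 1.81 (SE 0.16, edgeR adjusted p = 1.50e-10). Its levels were 7.77 to 29.8 CPM in NS-Veh, 25.9 to 56.1 in NS-1nM DHT, 103 to 111 in SLIRP-Veh and 100 to 142 in SLIRP-1nM DHT.

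The 2 B-type cyclins, the partners of CDK1 in mitosis, differed in how cleanly they separated. CCNB2 was at 5.83, 9.11, 19.2 and 17.7 CPM in NS-Veh, 18.5, 19.1, 21.6 and 24.0 in NS-1nM DHT, 57.6, 53.3, 64.4 and 65.8 in SLIRP-Veh and 58.2, 66.2, 60.6 and 59.3 in SLIRP-1nM DHT. CCNB1 was at 19.4, 38.7, 53.0 and 61.1 CPM in NS-Veh, 33.99, 44.2, 50.1 and 79.3 in NS-1nM DHT, 109, 86.8, 118 and 153 in SLIRP-Veh and 77.6, 88.8, 138 and 149 in SLIRP-1nM DHT. For CCNB2 all SLIRP siRNA libraries were above all NS libraries (3.26-fold, edgeR adjusted p = 2.63e-11), whereas for CCNB1 the lowest SLIRP-1nM DHT library lay just under the highest NS-1nM DHT library (1.20, SE 0.16, edgeR adjusted p = 2.68e-07). The 3 CDC25 phosphatases, which free CDK1 of its inhibitory phosphates, were all higher, with log2 fold changes of 1.68 for CDC25A, 1.18 for CDC25B and 1.38 for CDC25C. CDC25C had the fewest counts of any member, with a mean of 9.75 and 0 counts in 2 NS-Veh libraries.

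CKS1B and CKS2, small subunits that bind CDK1 and help it dock on substrates, moved by different amounts. CKS1B was at 7.29 to 15.5 CPM over the 8 NS libraries and 22.3 to 42.3 CPM over the 8 SLIRP siRNA libraries, with no overlap (log2 fold change 1.29, SE 0.18, edgeR adjusted p = 4.48e-07). CKS2 was at 19.4, 29.6, 28.5 and 26.5 CPM in NS-Veh, 20.6, 25.9, 21.6 and 37.1 in NS-1nM DHT, 30.6, 30.5, 35.5 and 41.2 in SLIRP-Veh and 42.7, 31.0, 58.7 and 49.6 in SLIRP-1nM DHT. The CKS2 ranges overlapped through NS-1nM DHT replicate 4, and its log2 fold change of 0.59 (SE 0.16, edgeR adjusted p = 0.00274) was the smallest of the group. Without SLIRP-1nM DHT replicate 3 the adjusted p of CKS2 was 0.0111 and the call was lost.

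Both transcription factors were higher. FOXM1 (hg19 chr12:2966846-2986340, minus strand), the forkhead factor of G2 and M phase genes, was at 19.4, 31.9, 58.3 and 79.6 CPM in NS-Veh and 37.1, 49.6, 81.2 and 109 CPM in NS-1nM DHT. It was at 137, 145, 152 and 120 CPM in SLIRP-Veh and 132, 138, 147 and 183 CPM in SLIRP-1nM DHT. FOXM1 varied widely among the NS-Veh libraries, yet the siRNAs did not overlap (log2 fold change 1.18, SE 0.17, edgeR adjusted p = 6.72e-07). MYBL2 (hg19 chr20:42295659-42345135, plus strand) was at 17.5, 13.7, 27.2 and 26.5 CPM in NS-Veh, 36.05, 33.6, 63.9 and 69.8 in NS-1nM DHT, 111, 134, 114 and 113 in SLIRP-Veh and 140, 141, 132 and 164 in SLIRP-1nM DHT. Its log2 fold change of 1.73 (SE 0.17, edgeR adjusted p = 1.59e-09) was larger than that of FOXM1, and the siRNAs again did not overlap.

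All 8 other mitotic kinases were called higher, with a median log2 fold change of 1.36. PLK1, the Polo-like kinase of mitotic entry and spindle poles, was at 11.7, 18.2, 21.2 and 23.3 CPM in NS-Veh, 10.3, 18.3, 31.1 and 22.5 in NS-1nM DHT, 52.8, 57.9, 52.6 and 49.1 in SLIRP-Veh and 41.4, 45.1, 56.8 and 65.0 in SLIRP-1nM DHT. Its siRNA groups were well apart (1.36, SE 0.15, edgeR adjusted p = 1.36e-08), while its 2 treatments overlapped under either siRNA. AURKB, the kinase of the chromosomal passenger complex, gave the largest difference of these kinases (1.47, SE 0.26, edgeR adjusted p = 2.74e-05). PBK was within that SE of it (1.45, SE 0.15). AURKB lay at 1.94 to 16.7 CPM in the NS and 14.2 to 31.6 CPM in the SLIRP siRNA libraries. Its lowest values are few counts, as 3 counts are 5.83 CPM in NS-Veh replicate 1. AURKA, the centrosome and spindle Aurora kinase, gave the smallest difference (1.04, SE 0.23, edgeR adjusted p = 0.000396). It was at 5.83, 11.4, 11.9 and 23.3 CPM in NS-Veh, 10.3, 12.97, 32.8 and 26.2 in NS-1nM DHT, 34.2, 16.8, 39.4 and 55.2 in SLIRP-Veh and 34.9, 24.0, 47.1 and 39.8 in SLIRP-1nM DHT. AURKA was 1 of 2 members, with CKAP2, whose SLIRP siRNA and NS ranges overlapped under both vehicle and DHT. PLK4, which starts centriole duplication, NEK2, TTK (the checkpoint kinase MPS1), MELK and PBK lay between 1.18 and 1.45.

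The 4 members grouped as passenger partners and other CDCA proteins were all called, from CDCA8 (borealin) at 1.23 to CDCA3, which triggers destruction of the CDK1 inhibitor WEE1, at 1.69. BIRC5 (survivin), which with borealin anchors Aurora B to centromeres, was at 1.55. Of the genes that act at the metaphase to anaphase switch all 4 were called. CDC20, the APC/C activator, was at 5.83, 9.11, 13.9 and 16.9 CPM in NS-Veh, 8.24, 12.2, 8.64 and 19.6 in NS-1nM DHT, 43.2, 38.1, 49.95 and 44.7 in SLIRP-Veh and 32.3, 38.1, 41.4 and 62.6 in SLIRP-1nM DHT. The gap between the siRNAs was wide and CDC20 had the highest log2 fold change of the 4 (1.78, SE 0.18, edgeR adjusted p = 1.67e-09). UBE2C, the E2 enzyme that starts APC/C ubiquitin chains, had the lowest (1.28, SE 0.18, edgeR adjusted p = 4.34e-07), and 1 SLIRP-1nM DHT library at 25.9 CPM lay below the highest NS library at 28.5 CPM. PTTG1 (securin, the inhibitor of separase) was at 1.55 and ESPL1 (separase, which cuts cohesin) at 1.57.

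Spindle assembly factors held both large and small differences, and 8 of 8 were called with a median of 1.34. TPX2, which activates Aurora A and nucleates microtubules near chromosomes, was at 25.05 to 57.6 CPM in NS-Veh, 43.3 to 86.4 in NS-1nM DHT, 149 to 180 in SLIRP-Veh and 158 to 194 in SLIRP-1nM DHT (1.49, SE 0.13, edgeR adjusted p = 6.77e-11). NUSAP1, a microtubule bundling protein, was the highest at 1.82, but 86.8% of its exonic bases in the hg19 annotation are shared with another locus on the same strand, so reads may be divided between them. CKAP2 was the lowest of all 58 members. It was at 64.1, 59.2, 82.8 and 97.2 CPM in NS-Veh, 69.0, 73.2, 111 and 101 in NS-1nM DHT, 114, 85.3, 106 and 96.5 in SLIRP-Veh and 153, 113, 135 and 104 in SLIRP-1nM DHT. The CKAP2 ranges overlapped under either treatment (0.40, SE 0.12, edgeR adjusted p = 0.00521). The CKAP2 call was lost without any 1 of 5 single libraries (NS-Veh replicate 2, NS-1nM DHT replicates 1 and 2, and SLIRP-1nM DHT replicates 1 and 3), with an adjusted p between 0.0106 and 0.0161. CKAP5 (chTOG), a microtubule polymerase that also serves interphase microtubules, had the second smallest difference of the spindle group at 0.65 (SE 0.07), yet its siRNA groups did not overlap, at 180 to 235 against 284 to 358 CPM.

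All 11 kinesins were called, with a median of 1.56. KIF11 (Eg5), the motor that pushes spindle poles apart, was at 21.4, 22.8, 33.8 and 31.3 CPM in NS-Veh, 28.8, 26.7, 38.9 and 40.7 in NS-1nM DHT, 78.0, 77.7, 81.5 and 60.5 in SLIRP-Veh and 89.2, 80.3, 103 and 92.6 in SLIRP-1nM DHT. No SLIRP siRNA library reached down to the NS range (1.36, SE 0.13, edgeR adjusted p = 2.99e-10). KIF23 (MKLP1), the motor of centralspindlin, was at 1.94, 6.83, 8.61 and 5.62 CPM in NS-Veh, 13.4, 15.3, 14.7 and 18.9 in NS-1nM DHT, 39.0, 32.0, 24.98 and 25.4 in SLIRP-Veh and 43.97, 39.5, 42.3 and 35.8 in SLIRP-1nM DHT. Its siRNA groups were apart (1.59, SE 0.21, edgeR adjusted p = 3.20e-07), and in NS cells the 2 treatments were apart too. KIF14, which recruits citron kinase to the midbody, was the highest kinesin at 1.82, and KIF22 (Kid), which pushes chromosome arms away from the poles, the lowest at 0.78 (SE 0.14). KIF4A, a chromosome-bound motor, has the near-identical copy KIF4B, and reads may be divided between them. KIF4A rose by 1.56 (SE 0.18), and KIF4B lay at 1.94 to 8.73 CPM in the NS and 4.57 to 17.9 CPM in the SLIRP siRNA libraries. PTTG2 and PTTG3P, copies of PTTG1, did not exceed 7.70 and 5.26 CPM in any library.

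The 5 cytokinesis genes were called, and they held the largest difference of the list. CEP55, the midbody scaffold that recruits the abscission machinery (hg19 chr10:95256369-95288849, plus strand), was at 7.77, 6.83, 13.3 and 12.1 CPM in NS-Veh and 18.5, 18.3, 25.9 and 26.9 CPM in NS-1nM DHT. It was at 64.2, 67.0, 71.0 and 64.9 CPM in SLIRP-Veh and 105, 87.4, 98.1 and 84.5 CPM in SLIRP-1nM DHT. The 4 groups did not overlap, and the log2 fold change of 2.17 (SE 0.17, edgeR adjusted p = 1.44e-11) is a 4.48-fold difference. PRC1, which crosslinks the microtubules of the central spindle, was at 27.2 to 34.6 CPM in NS-Veh, 22.7 to 59.6 in NS-1nM DHT, 94.6 to 98.4 in SLIRP-Veh and 103.9 to 123 in SLIRP-1nM DHT (1.42, SE 0.14, edgeR adjusted p = 8.51e-10). Of the PRC1 exonic bases, 57.6% are shared with another locus on the same strand and 34.3% with one on the other strand. ANLN (anillin), the scaffold of the contractile ring, was at 1.33, RACGAP1, the partner of KIF23 in centralspindlin, at 1.08, and ECT2, the exchange factor that activates RhoA at the cell equator, at 0.90 (SE 0.12), the lowest of the 5.

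All 7 members that shape mitotic chromosomes were called, with a median of 1.41. MKI67 (Ki-67), the coat of mitotic chromosomes used as a proliferation marker, was at 48.6, 50.1, 96.1 and 82.8 CPM in NS-Veh, 71.1, 103.7, 130 and 132 in NS-1nM DHT, 335, 341, 254 and 292 in SLIRP-Veh and 374, 378, 372 and 346 in SLIRP-1nM DHT. TOP2A, the topoisomerase that untangles sister DNA, was at 19.4, 36.4, 59.0 and 47.4 CPM in NS-Veh, 37.1, 45.0, 82.9 and 82.9 in NS-1nM DHT, 208, 178, 160 and 186 in SLIRP-Veh and 193, 221, 206 and 203 in SLIRP-1nM DHT. Both were far apart between the siRNAs, with log2 fold changes of 1.82 (SE 0.13, edgeR adjusted p = 7.58e-13) for MKI67 and 1.82 (SE 0.14, edgeR adjusted p = 5.38e-12) for TOP2A. The condensin I subunits NCAPG, NCAPH and NCAPD2 were at 1.51, 1.41 and 1.10, and the SMC ATPases shared by both condensins, SMC2 and SMC4, at 1.16 and 0.88. NCAPG was at 25.3, 4.55, 30.5 and 21.7 CPM in NS-Veh, 25.8 to 42.2 in NS-1nM DHT, 69.7 to 76.1 in SLIRP-Veh and 89.4 to 106 in SLIRP-1nM DHT (SE 0.16, edgeR adjusted p = 4.20e-09). SMC4 was at 117, 59.2, 123 and 122 CPM in NS-Veh, 96.8 to 149 in NS-1nM DHT, 186 to 241 in SLIRP-Veh and 211 to 248 in SLIRP-1nM DHT (SE 0.10, edgeR adjusted p = 2.46e-08). The siRNA groups of both genes did not overlap. On the other strand, 33.7% of the NCAPG and 22% of the SMC4 exonic bases are shared with another locus, and FOXM1, PLK1, CDCA3 and KIFC1 share between 11.3% and 15.9%. The strand setting of the counting is not given in the sources used here.

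The same question was asked for each treatment on its own. Under vehicle, 55 of 58 members were called higher with SLIRP siRNA, where 11.8% of the 10684 genes tested were, and the median log2 fold change was 1.58. Under 1 nM DHT it was 57 of 58, against 12.8%, with a median of 1.30. The SLIRP-Veh libraries lay above the NS-Veh libraries without overlap for 56 members (15.3% of genes tested) and the SLIRP-1nM DHT libraries above the NS-1nM DHT libraries for 52 (16.3%). CDC25C (1.25, SE 0.46, edgeR adjusted p = 0.0363), CKAP2 (0.34, SE 0.16, edgeR adjusted p = 0.0931) and CKS2 (0.37, SE 0.22, edgeR adjusted p = 0.202) did not pass under vehicle. AURKA did not pass under DHT (0.83, SE 0.29, edgeR adjusted p = 0.0219). Within replicates 1 and 2 the medians were 2.22 under vehicle and 1.65 under DHT, and within replicates 3 and 4 they were 1.36 and 1.05. These pairs were chosen after seeing the data.

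The calls of 6 members within a treatment, AURKA, AURKB, CDC25C, CKAP2, CKS2 and KIF18A, changed when single libraries were left out. Under vehicle, AURKA was lost without NS-Veh replicate 3 or SLIRP-Veh replicate 4 (edgeR adjusted p = 0.0140 and 0.0144), KIF18A without NS-Veh replicate 3 or SLIRP-Veh replicate 1 (edgeR adjusted p = 0.0231 and 0.0215), and CDC25C was gained without NS-Veh replicate 4 (edgeR adjusted p = 0.00482). Under DHT, AURKA was gained without NS-1nM DHT replicate 3 (edgeR adjusted p = 0.00436). AURKB, at 1.02 (SE 0.31), was lost without any 1 of 8 libraries (NS-Veh replicate 2, NS-1nM DHT replicates 1 to 3, SLIRP-Veh replicate 1 and SLIRP-1nM DHT replicates 2 to 4), with an edgeR adjusted p between 0.01003 and 0.0405. CKAP2 was lost without NS-1nM DHT replicate 1 or 2 or SLIRP-1nM DHT replicate 1 or 3, KIF18A without NS-1nM DHT replicate 1 or 3 or SLIRP-1nM DHT replicate 3 or 4, CDC25C without NS-1nM DHT replicate 2 or SLIRP-1nM DHT replicate 3, and CKS2 without SLIRP-1nM DHT replicate 3. In these the edgeR adjusted p lay between 0.0105 (CDC25C) and 0.0516 (KIF18A).

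**Figure D3:**
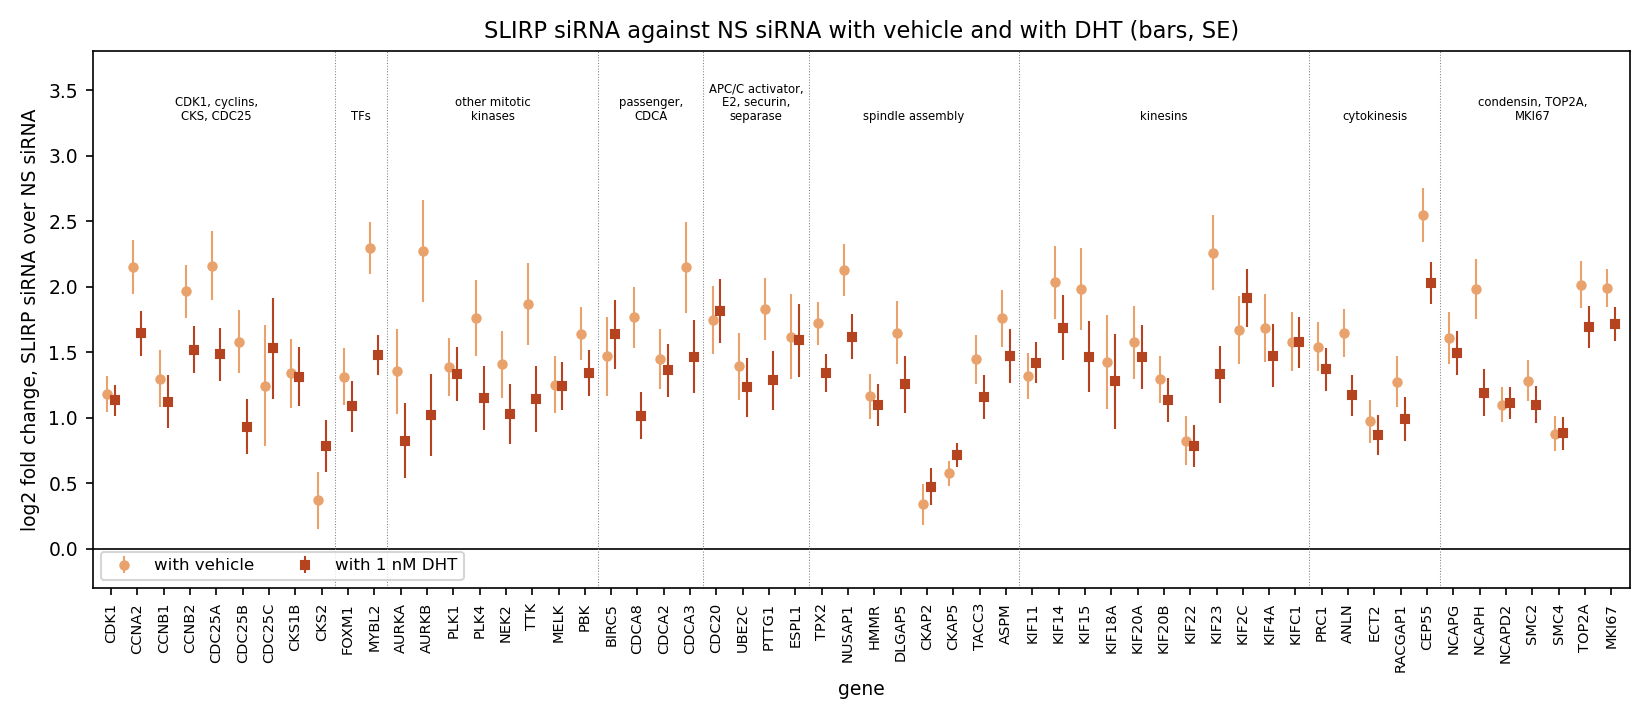
Log2 fold change of each member (horizontal axis, grouped by role), SLIRP siRNA over NS siRNA, with vehicle (circles) and with 1 nM DHT (squares), with SE as bars. The points lie above 0 for all 58 members, with medians of 1.58 and 1.30, and the lowest are CKS2, CKAP2 and CKAP5.

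SLIRP siRNA without hormone was set against hormone without SLIRP siRNA. SLIRP-Veh libraries lay above all NS-1nM DHT libraries for 50 of 58 members, which 15.3% of genes tested did. CCNB1 and UBE2C were among these 50, while CKS2, AURKA, AURKB, TTK, CDCA8, ESPL1, CKAP2 and ECT2 were not.

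Far fewer members were called with DHT than with SLIRP siRNA. In NS cells 54 members passed the filter on low counts, and AURKB, CDC25C, ESPL1 and KIF18A did not. DHT raised 3 of the 54 at an FDR of 0.01, where 0.849% of the 10367 genes tested were called higher, and the median log2 fold change was 0.41. This fit did not use the replicate numbers, since they may not pair the libraries. A fit with a block for replicate number, given with the alternatives at the end, called more members. The 3 were MYBL2 (1.12, SE 0.23, edgeR adjusted p = 0.00391), NCAPH (1.22, SE 0.26, edgeR adjusted p = 0.00592) and CDK1 (0.65, SE 0.14, edgeR adjusted p = 0.00797). NCAPH, the condensin I kleisin, was at 9.71, 11.4, 9.94 and 19.3 CPM in NS-Veh, 21.6, 24.4, 38.9 and 37.1 in NS-1nM DHT, 49.2, 48.7, 49.95 and 61.4 in SLIRP-Veh and 69.8, 84.6, 66.4 and 67.4 in SLIRP-1nM DHT, with no overlap between the groups. Each of the 3 calls was lost without any 1 of NS-Veh replicates 1, 2 and 3 and NS-1nM DHT replicates 3 and 4, and those of MYBL2 and CDK1 also without NS-Veh replicate 4. The edgeR adjusted p was then 0.0116 to 0.0283 for MYBL2, 0.0174 to 0.0701 for NCAPH and 0.0143 to 0.0508 for CDK1.

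Below that threshold most members leaned upward with DHT in NS cells. The log2 fold change was above 0 for 52 of 54, where 50.1% of genes tested were, and 21 had an unadjusted p under 0.05 from edgeR, all higher, against 7.53%. CDCA8 (1.13, edgeR adjusted p = 0.0108), KIF23 (1.28, edgeR adjusted p = 0.0278), CDC25A (1.08, edgeR adjusted p = 0.0339) and CEP55 (1.01, edgeR adjusted p = 0.0339) came next, and CDCA8 was gained without NS-1nM DHT replicate 2 (edgeR adjusted p = 0.00457). NS-1nM DHT libraries lay above NS-Veh libraries without overlap for 7 members (CDK1, CDC25A, MYBL2, CDCA8, KIF23, CEP55 and NCAPH), where 4.73% of genes tested did. By replicate number the summed level was 1.45, 1.37, 1.35 and 1.41 times higher with DHT, given as values without a test since the numbers may not pair the libraries. The values for CDC20 (-0.05), CKAP5 (-0.06), CKS2 (0.01) and PLK1 (0.06, 95% interval -0.48 to 0.61) were near 0.

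In SLIRP siRNA cells DHT raised 1 of 58 members, CDK1 (0.61, SE 0.11, edgeR adjusted p = 0.00102), where 0.636% of the 10684 genes tested were called higher. The CDK1 call was lost without replicate 3 of every group (edgeR adjusted p = 0.0365). CEP55 was next (0.49, SE 0.14, edgeR adjusted p = 0.0426). The median log2 fold change was 0.21, 50 of 58 values were above 0 against 49.8% of genes tested, and 14 members had an unadjusted p under 0.05 from edgeR, all higher, against 8.02%. SLIRP-1nM DHT libraries lay above SLIRP-Veh libraries without overlap for 10 members (CDK1, PBK, CDCA8, PRC1, RACGAP1, CEP55, NCAPG, NCAPH, NCAPD2 and MKI67), against 4.57% of genes tested. PTTG1 (-0.30, SE 0.19) and KIF18A (-0.32, SE 0.30) had the lowest values.

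**Figure D4:**
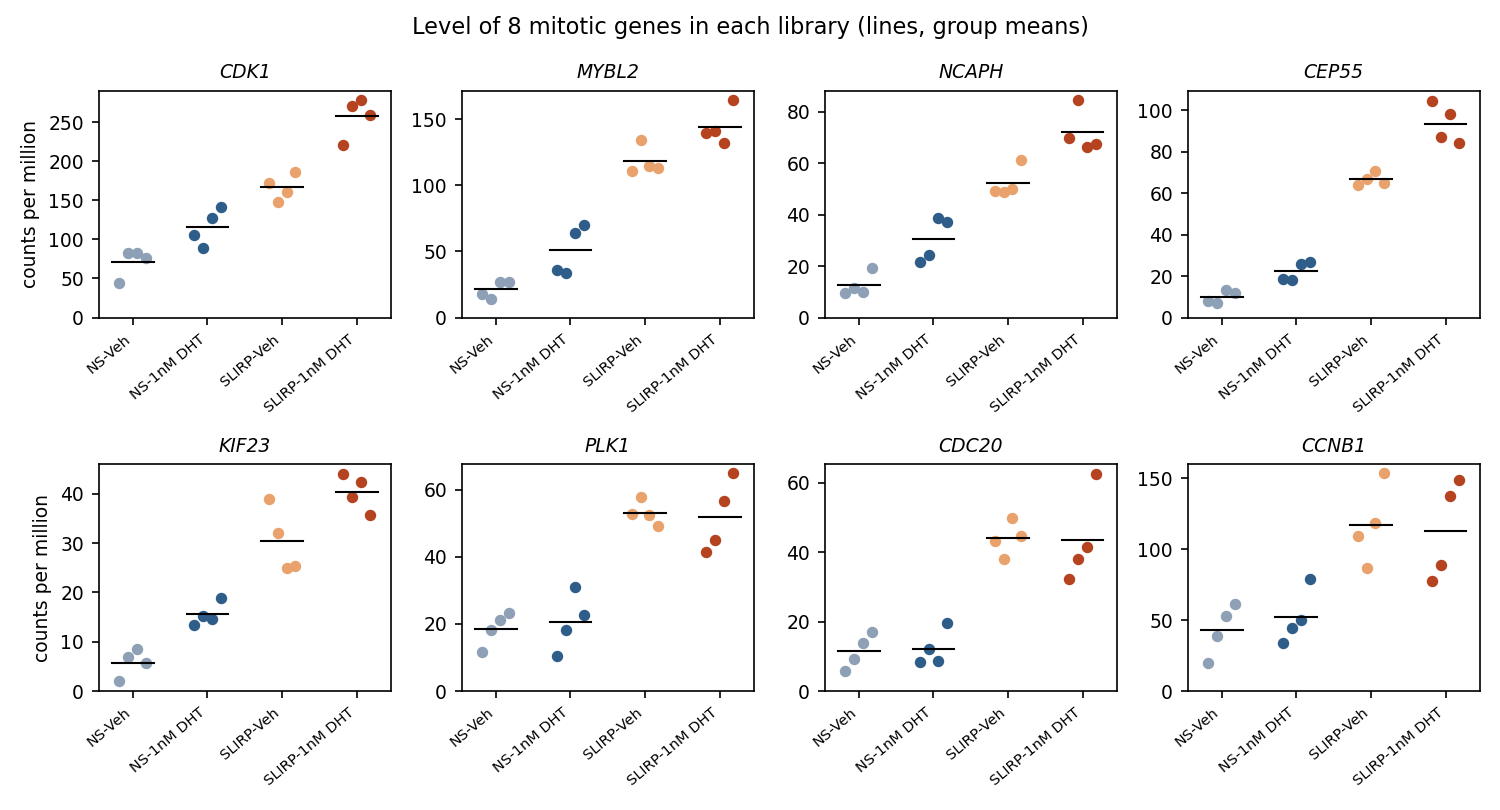
Level in CPM (vertical axes from 0, each with its own scale) of 8 members in each library, by group, with lines at the group means. CDK1, MYBL2, NCAPH, CEP55 and KIF23 have no overlap between NS-Veh and NS-1nM DHT, whereas PLK1, CDC20 and CCNB1 overlap between the treatments under either siRNA. Levels of PLK1 and CDC20 are higher with SLIRP siRNA without overlap, and those of CCNB1 are higher with a slight overlap under DHT.

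The difference between the DHT responses was tested as an interaction. No member was called, nor was any of the 10684 genes tested by edgeR or by DESeq2. On simulated counts for this contrast edgeR recovered 42.7% of 2-fold and 89.4% of 3-fold differences, so smaller differences could not be detected reliably at this depth. The simulated spread was the same for every gene, and these shares need not hold for members with low counts or a wide spread. The median difference of the members was -0.22 and 10 of 58 values were above 0, where 46.4% of genes tested were. By edgeR, 5 members had an unadjusted p under 0.05, all with a smaller response in SLIRP siRNA cells, against 388 genes in all (3.63%). They were MYBL2 (-0.82, SE 0.26), AURKB (-1.25, SE 0.52), CDCA8 (-0.75, SE 0.30), KIF23 (-0.93, SE 0.38) and NCAPH (-0.79, SE 0.30). Each had an edgeR adjusted p of 0.99993, and AURKB had not passed the filter on low counts for DHT in NS cells. For CDK1 the difference was -0.05 with a 95% interval from -0.41 to 0.32. These contrasts use the same 16 libraries as the siRNA comparisons and are not independent of them.

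Other genes of cell division were counted from 6 lists. Of 122 listed genes, 103 were tested in the SLIRP siRNA against NS siRNA comparison, of which 42 were higher and 15 lower, with a median log2 fold change of 0.20 against 1.38 for the members. The counts of each list are to be read against the 17.8% of all genes tested that were higher and the 17.4% that were lower. Of 14 APC/C genes, 2 were higher (UBE2S, its chain-elongating E2, at 0.60 and ANAPC1 at 0.44) and 3 lower (ANAPC16 at -0.53, ANAPC13 at -0.48 and CDC27), with a median of -0.21. Of 22 contractile ring, septin and abscission genes, 5 were higher (CIT, the citron kinase, at 1.39 and VPS4B at 0.66) and 6 lower (ROCK2, a kinase of myosin contraction, at -0.79 and MYH10, a non-muscle myosin, at -0.62), with a median of -0.09. Of 18 other kinesins and light chains, most but not all of cargo transport, 4 were higher and 3 lower, with a median of 0.11. KIF24, which was listed there but acts at centrioles, was the highest at 1.41, followed by KIF5C at 0.58, and KLC4 (-0.74) and KIF5B (-0.55) were the lowest.

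The other lists moved further. Of 14 genes for the restraint of CDK1, APC/C inhibition and mitotic phosphatases, 7 were higher and 1 lower, with a median of 0.26, from FBXO5 (the APC/C inhibitor EMI1, 1.40) and PKMYT1 (a kinase that inhibits CDK1, 1.22) to PPP2R2A (-0.41). Of 15 condensin II and cohesin genes 10 were higher and none lower, with a median of 0.65. ESCO2 and CDCA5 (sororin), which establish and protect sister cohesion in S phase, led with 1.62 and 1.47, and NCAPH2 (-0.52, edgeR adjusted p = 0.0387) and STAG2 (-0.20, edgeR adjusted p = 0.0350) did not pass. Of 20 other spindle and central spindle genes 14 were higher and 2 lower, with a median of 0.67, from KIF18B (1.82) and SHCBP1 (1.68) to CLASP2 (-0.35) and NUMA1 (-0.49). The lists were described by counts only and no test was made between them.

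**Figure D5:**
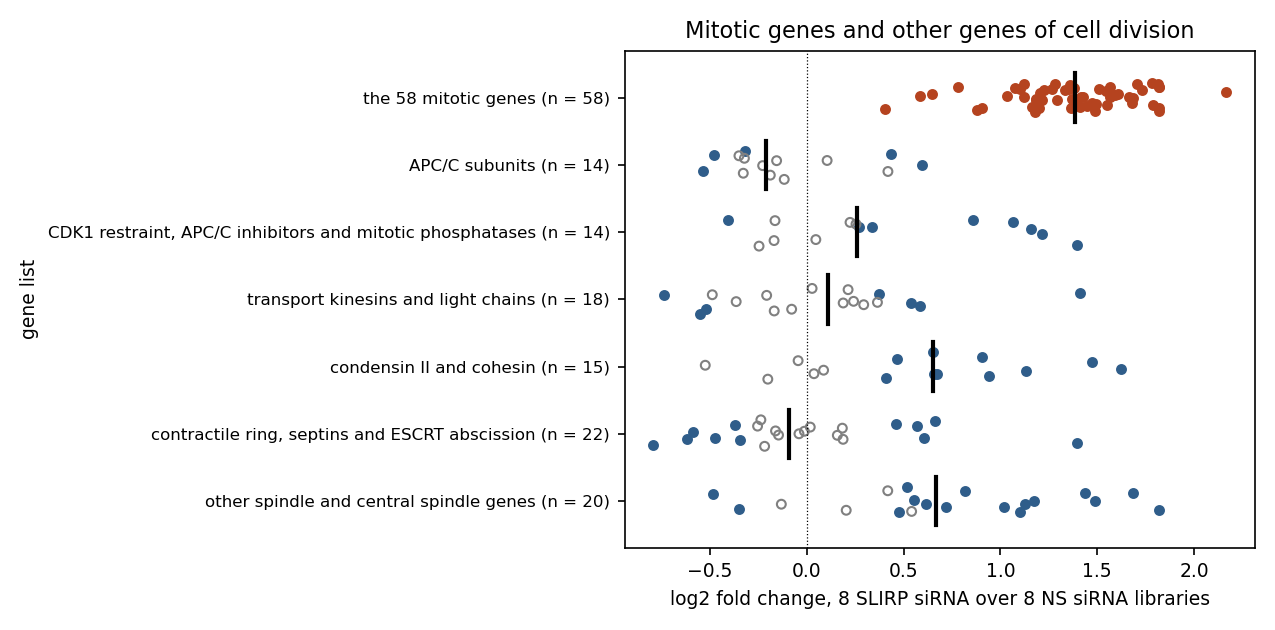
Log2 fold change of SLIRP siRNA over NS siRNA (horizontal axis, 8 against 8 libraries) for the 58 members and the tested genes of 6 other lists of cell division genes (rows). Filled points passed an FDR of 0.01, open points did not, and the thick lines are medians. The 58 members lie between 0.40 and 2.17 with a median of 1.38. Single genes of the other lists lie between -0.79 and 1.82, and the medians of these lists between -0.21 and 0.67.

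Promoters of late cell cycle genes are known to carry the cell cycle genes homology region (CHR, TTTGAA), bound by complexes that hold MYBL2 or its repressive counterparts, and often CCAAT boxes upstream. RefSeq promoter sequences on GRCh38.p14, from 250 bases before to 50 after each gene start, were matched for 49 of the 58 members with 64 windows. FOXM1, AURKA, TTK, PBK, BIRC5, CDCA2, UBE2C, TPX2 and RACGAP1 were not matched. On either strand TTTGAA was in 37 of the 64 windows (57.8%) against 15.2% of all 35116 windows, and CCAAT in 44 (68.8%) against 34.6%. Within the 60 bases before the start TTTGAA was in 18 member windows (28.1%) against 2.71%. The 18 members with such a word had a median log2 fold change of 1.37 and the 31 without one 1.42. Only the exact word TTTGAA was searched and no other form of the element. The medians were not compared by a test. Stretches of 30 bases around the word are shown for 10 members, taken from the CDK1 group, the kinases, the kinesins, cytokinesis and the chromosome group, with fold changes on the log2 scale from CKS2 (0.59) to MKI67 (1.82), written 5′ to 3′ on the strand given, with the TTTGAA word in capitals.
CDK1 (chr10:60778453-60778482, plus): tagcgcggtgagTTTGAAactgctcgcact
CCNB2 (chr15:59105105-59105134, plus): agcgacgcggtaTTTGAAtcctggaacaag
CKS1B (chr1:154974639-154974668, plus): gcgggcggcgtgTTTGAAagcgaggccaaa
CKS2 (chr9:89311154-89311183, minus): caacgatccggaTTTGAAtccgacagcccg
PLK1 (chr16:23678848-23678877, plus): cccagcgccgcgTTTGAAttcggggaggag
KIF11 (chr10:92593090-92593119, minus): tcggcgcctcaaTTTGAAaaagagacagag
KIF23 (chr15:69414282-69414311, plus): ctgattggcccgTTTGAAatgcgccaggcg
PRC1 (chr15:90994538-90994567, minus): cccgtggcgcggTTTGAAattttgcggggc
NCAPG (chr4:17810932-17810961, plus): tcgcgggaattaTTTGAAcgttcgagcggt
MKI67 (chr10:128126435-128126464, minus): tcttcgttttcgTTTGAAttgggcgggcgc
The word began between 13 (CDK1) and 55 (KIF23) bases before the gene start in these promoters. In KIF11 and CKS2 it lies on the strand opposite to the gene. The matches are letters in these windows, and binding was not measured.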

How the data were processed

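RNA sequencing libraries of LNCaP cells were grouped by siRNA and treatment from their labels, 4 per group. The deposited table holds estimated counts per gene, which the authors obtained from hg19-aligned reads. The submitters' processing notes name CASAVA and RSEM, without versions. The values in it are whole numbers and were used as deposited. A second deposited table of 13148 genes holds values that the authors normalized by a method not given in the sources used here, so they were treated as a score. It entered only 1 alternative, a limma fit on log2(value + 1). The annotation and strand setting of the counting are not given in the sources used here.

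In R 4.3.3 with edgeR 4.0.16, counts were scaled by TMM, filtered with filterByExpr and fitted with the quasi-likelihood test over all genes, with Benjamini-Hochberg adjustment and an FDR of 0.01. The SLIRP siRNA against NS siRNA comparison used all 16 libraries without a treatment term, DHT in NS cells used the 8 NS libraries, and the others were contrasts of a model with 4 groups. The SE is the log2 fold change divided by the square root of its F statistic, and intervals (95%) use the t distribution. Levels are CPM, counts per TMM-scaled library size, and were not divided by gene length, so they were compared between libraries and not between genes. Totals of 436353 to 1689708 counts limit the precision of low members. The intervals of the fit include the spread between libraries. On simulated counts with 200 changed genes, edgeR recovered 100% of 2-fold changes between siRNAs and 79.6% of those between treatments in NS cells. The changed genes all had mean counts above those of the lowest members, and the simulated spread was the same for every gene. These shares need not hold for members with low counts or a wide spread.

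Alternatives were DESeq2 1.42.0, limma 3.58.1, upper-quartile and RLE scaling, other filters and thresholds, a replicate block, a treatment term, and leaving out libraries. Fits on replicates 1 and 2 or 3 and 4 alone were added after seeing the data. The members, the 6 other lists, the named genes and the tests were chosen with earlier results of these data known. Named were the main genes of each role, the highest and lowest member of each role, every member that did not pass in a siRNA comparison or passed with DHT, and members with a near-identical copy. Further members, and all genes of the other lists, were named after their values were seen. Gene positions are from GENCODE v44lift37 on hg19 and promoters from RefSeq on GRCh38.p14. Protein sequences were not analysed here.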

Additional observations from a re-analysis of the deposited data

Results flagged for a closer look

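In 5 of 112 groups of 4 libraries, 1 library lay far from the other three relative to the range of its group, where chance alone gives about 1 in 20 groups. CDK1 was at 44.7 CPM in NS-Veh replicate 1 and at 76.3 to 82.8 CPM in the others. SMC4 was at 59.2 CPM in NS-Veh replicate 2, the shallowest library, and at 117 to 123 CPM in the others. MYBL2 was at 134 CPM in SLIRP-Veh replicate 2 against 111 to 114 CPM, and NCAPH at 61.4 CPM in SLIRP-Veh replicate 4 against 48.7 to 49.95 CPM. CKAP5 was at 309 CPM in SLIRP-1nM DHT replicate 4 against 356 to 358 CPM. The siRNA calls of these 5 genes were the same without the library named. The causes were not tested.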

How the results depend on the processing

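The siRNA result for the 58 mitotic genes kept its direction under every alternative run. Scored gene by gene were all 58 members in the siRNA comparisons, 9 with DHT in NS cells and 2 with DHT in SLIRP siRNA cells. Among them 0 of 5394 gene results changed sign, while 5253 kept their call, 121 lost it and 20 gained it. The remaining members with DHT and the differences in response were not scored, and values near 0 could change sign there. With the replicate block CDC20 with DHT in NS cells went from -0.05 to 0.01. With at least 10 counts in every library only 20 members were left, of which 20 were called with both treatments together, 18 under vehicle (median 1.29) and 20 under DHT. From replicates 1 and 2 alone, chosen after seeing the data, the medians were 1.78, 2.22 and 1.65 in the same order. Leaving out libraries or a replicate number gave 56 to 58 called with both treatments together (median 1.30 to 1.55), 53 to 56 under vehicle (1.41 to 1.74) and 52 to 57 under DHT (1.19 to 1.46). In that order, 55, 55 and 44 of 58 members were called by limma on the authors' normalized values, and from replicates 3 and 4 alone 57, 53 and 50.

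The few DHT calls depended on the settings. In NS cells 3 members were called, against 1 by DESeq2, 7 without a filter, 1 with at least 10 counts in every library, 7 at an FDR of 0.05, 0 by limma, 0 from replicates 1 and 2 alone, 6 from replicates 3 and 4 alone, and 0 to 5 when libraries were left out (median 0.27 to 0.58). In SLIRP siRNA cells the count of 1 became 2 at an FDR of 0.05, 0 by limma, 0 from replicates 1 and 2 alone, and 0 to 1 when libraries were left out (median 0.17 to 0.23). The difference in response had 0 members called throughout, with a median of -0.39 to -0.08 when libraries were left out. For the alternatives of this section the share of all genes called is not given here, so the counts describe the members only.

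Deviations from the group mean correlated at 0.158, 0.0505, 0.137 and 0.200 over 6965 genes between NS-Veh and NS-1nM DHT libraries of the same number. NS-Veh replicates 1, 3 and 4 correlated best with their own number there, and NS-Veh replicate 2 with number 1. Correlations were below 0.0505 in several pairs that involve SLIRP siRNA libraries. The labels do not say whether a number marks a shared experiment, so the numbers were not taken as pairs. With the replicate block, 12 members were called with DHT in NS cells (median 0.54), among them MYBL2, CDK1 and NCAPH. The share of all genes called with the block is not given here, so this count is not set against it. With the block 58 members were called with both treatments together, 55 under vehicle, 58 under DHT, 1 with DHT in SLIRP siRNA cells and 0 for the difference. Counts were low for CDC25C and KIF18A, with means of 9.75 and 12.25, which limits their precision.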
